A study of Mus musculus with 7 samples.

Results

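Immediate early genes are the first genes that a stimulated cell switches on, and 10 of them, Fos, Fosb, Jun, Junb, Egr1, Atf3, Ier2, Ier3, Zfp36 and Dusp1, were followed here through the cell clusters of the mouse kidney. The rule that chose them is a list of names with no threshold on a value, although the list was drawn up with earlier results of these data known, and all 10 were present among the 16272 genes of the deposited matrix. Whole kidneys of 7 C57BL/6 mice, 4 to 8 weeks old, were dissociated and their cells were profiled with droplet 3′ sequencing, in which each captured transcript molecule is counted by its unique molecular identifier (UMI). By their labels, 4 mice were WT and 3 were reporter mice, among them 1 Cdh16CremTmG and 1 SclCremTmG. In such mice a Cre recombinase marks cells through the mTmG membrane reporter, with Cdh16 a gene of the tubule and Scl a gene of blood and endothelial lineages. No mouse carried a labelled treatment. The number that ends each cell barcode gives 7 libraries, which no source used here links to the labelled mice, so they are called libraries 1 to 7; all were taken to form one group.

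Growth factors, calcium, cell stress and enzymatic digestion of tissue are known to raise these genes within minutes through serum response factor, CREB and MAP kinase signalling, without new protein synthesis. Fos and Fosb pair with Jun and Junb to form AP-1, a transcription factor that binds DNA as a dimer, and Atf3 is a related stress-induced factor that can pair with them. Egr1 is a zinc finger transcription factor, Dusp1 a phosphatase that switches off MAP kinases, Zfp36 (tristetraprolin) a protein that binds AU-rich mRNAs and speeds their decay, and Ier2 and Ier3 are short nuclear and stress-response proteins. In dissociated tissues, RNA of these genes can come from the living organ and from the time spent in digestion, and these cannot be told apart here.

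The authors assigned every one of the 43745 cells to cluster 1 to 16, on the same counts that are analysed here, and the design text states 57979 cells. Marker lists gave clusters 1, 2, 3, 4, 5, 6 and 7 the names endothelial-like, podocyte-like, proximal tubule-like, loop of Henle-like, distal convoluted tubule-like, principal-like and intercalated-like, and clusters 10 to 15 the names monocyte-like, macrophage-like, neutrophil-like, B lymphocyte-like, T lymphocyte-like and natural killer-like. Clusters 8, 9 and 16 stay unnamed, since at most 3 markers of any list were highest there. Libraries held 1383 to 14136 cells, 4217169 to 49997616 UMIs and a median of 1630 to 3115 UMIs per cell, of which a median of 17.1 to 23.3% were mitochondrial. Barcodes found in 2 or more libraries numbered 974, which touches 1962 cells or 4.49%. Levels are UMI counts of the summed cells of a library and cluster, scaled to the same total (CPM), where at least 5 cells were present, and are given as mean ± SD over libraries. There were 96 such sums, and clusters 2, 8, 9, 12 and 16 had sums from 3 to 5 libraries only.

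The neutrophil-like cluster 12, with only 74 cells, had the highest mean level of 6 of the 10 genes, namely Fos, Fosb, Junb, Ier2, Zfp36 and Dusp1. The other 4 peaked elsewhere: Jun in the endothelial-like cluster 1, Egr1 in the principal-like cluster 6, Atf3 in the macrophage-like cluster 11 and Ier3 in the distal convoluted tubule-like cluster 5. The share of all genes with their highest mean in cluster 12 is not given here, so the count of 6 is not read as particular to the members. At the other end, the 4 sums of the podocyte-like cluster 2 held no UMI of Fos, Fosb or Egr1, where a count of 0 among 190433 UMIs allows up to 15.8 CPM. Most steps in these orders were small. Between neighbours in the order of means, the ranges over libraries overlapped in all 15 steps for Fosb, Jun, Atf3, Ier3 and Zfp36 and in 14 of 15 for each of the other genes. For Fos and Egr1 the remaining step is the last one, down to cluster 2, whose limit of 15.8 CPM lies above the levels of the cluster before it, so cluster 2 is not shown to be lower. Cells of cluster 2 outside these sums held 2 Fos UMIs. The overlap of neighbours over all genes is not given here, so these overlaps are not read as particular to the members.

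Fos, which cannot bind DNA as AP-1 without a Jun partner, was highest in cluster 12, where it stood at 2152, 2076, 933, 1229 and 678 CPM in libraries 2, 4, 5, 6 and 7. The monocyte-like cluster 10 followed with a lowest, median and highest library of 159, 324 and 826 CPM, and the 2 ranges overlapped. In the proximal tubule-like cluster 3 the libraries ran from 0.303 to 3.94 CPM. Among the tubule clusters, the principal-like cluster 6 was the high one, at 164 ± 154 CPM (SD, n = 6), against 1.93 ± 1.36 CPM in cluster 3 and 5.18 ± 3.46 CPM in cluster 5 (SD, n = 7 each).

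Counted per cell, Fos gave the same picture. After every cell was thinned to 1000 UMIs, 58.5% of the cells of cluster 12 had a Fos UMI (95% Wilson interval 46.3 to 69.6%), against 7.5% in cluster 6 and 0.237% in cluster 3. The unthinned shares were 74.3%, 13.2% and 0.653%, at median depths of 1454, 2895 and 2281 UMIs per cell. No kidney cell type is known to lack these genes, so the share in the lowest large cluster, cluster 3, is given as the background, in which RNA free in the droplets is counted as well. Intervals and limits of this kind cover counting error only.

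Fosb, the sparse relative of Fos, totalled 288 UMIs in the whole matrix. Its level in cluster 12 was 191, 189, 114, 50.1 and 0 CPM in libraries 2, 4, 5, 6 and 7, each resting on at most 6 UMIs. In the next cluster, the B lymphocyte-like cluster 13, it reached 20.7 ± 26.0 CPM (SD, n = 7). Libraries of cluster 12, from 0 to 191 CPM, overlapped with those of cluster 13, which reached 71.9 CPM. The spread over libraries was as wide as the mean in most clusters, so the order of Fosb is not resolved at this depth.

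The partners of Fos in AP-1 differed in where they were high. Junb was the single member of which every library in its top cluster lay above every library of the next cluster. How often this holds over all genes is not given here. Junb measured 2105, 2359, 971, 1103 and 2294 CPM in libraries 2, 4, 5, 6 and 7 of cluster 12. In cluster 10 its lowest, median and highest library had 211, 314 and 419 CPM. Its lowest cluster was cluster 5, at 7.65 ± 1.49 CPM (SD, n = 7). Jun was instead highest in the endothelial-like cluster 1, with 161, 467 and 595 CPM as lowest, median and highest library. In cluster 12 Jun was at 0, 94.4, 95.2, 100.3 and 104 CPM, on at most 5 UMIs per library, so the cells that were highest for Junb were not high for Jun. Of all Jun UMIs, 47.4% came from cluster 3, whose cells made up most of the data, although its level there was only 41.3 ± 25.6 CPM.

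Atf3, with 243 UMIs in all, had its highest mean levels in the mononuclear phagocyte clusters 11 and 10. It had 76.7 ± 62.6 CPM in cluster 11 and was found in all 7 libraries of clusters 10 and 11, where cluster 11 ran from 19.8 to 205 CPM. In the natural killer-like cluster 15 no UMI was counted in 7 libraries, which allows up to 4.13 CPM. In the tubule clusters 3 and 5 the mean was 0.155 and 0.476 CPM, and in clusters 4, 6 and 7 it was 3.30, 0.994 and 4.49 CPM. Clusters 12 and 9 had means of 19.2 and 17.1 CPM, on 3 and 4 UMIs.

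Egr1 was highest on average in the principal-like cluster 6. Libraries 1 to 6 held 159, 276, 86.0, 270.5, 40.1 and 54.5 CPM there, and library 7 had too few cells of this cluster for a sum. The unnamed cluster 8 and the phagocyte clusters 11 and 12 overlapped with it. In the distal convoluted tubule-like cluster 5 every library lay between 1.02 and 2.23 CPM, and in cluster 3 between 0.303 and 5.04 CPM.

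Ier2 had its highest mean in cluster 12, where library 4 with 1415 CPM stood apart from 430, 171, 251 and 574 CPM in libraries 2, 5, 6 and 7. It was also at 240.0 ± 75.3 CPM in cluster 10 and 172 ± 106 CPM in cluster 1, against 9.91 ± 3.99 CPM in cluster 3. Zfp36 reached 478, 377, 228, 251 and 626 CPM in the same libraries of cluster 12 and 186 ± 63.8 CPM in cluster 10. Dusp1 stood at 2631, 1982, 818, 1504 and 1356 CPM in cluster 12 and at 470.2 ± 324 CPM in cluster 11. Cluster 3, which has 26482 of the 43745 cells, held 68.1% of all Zfp36 UMIs and 65.9% of all Dusp1 UMIs. Their levels there were 43.7 ± 22.0 and 68.6 ± 28.2 CPM (SD, n = 7 each).

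Ier3, a protein linked to survival under stress and to the early response to growth factors, was high elsewhere. It was highest in cluster 5, with 185, 341 and 408 CPM as lowest, median and highest library, and next in the loop of Henle-like cluster 4, with 97.7, 229 and 325 CPM. Of its 11837 UMIs, 74.3% came from cluster 5. After thinning, 26.9% of the cells of cluster 5 had an Ier3 UMI, against 0.973% in cluster 3; the unthinned shares were 49.3% and 2.22%. Across the 16 cluster means, the correlation of Ier3 with the other 9 genes lay between -0.16 and 0.12, whereas that of Fos with Zfp36 was 0.92 and that of Fosb with Junb was 0.89. Over 42 sums of a library and cluster, taken within clusters, the correlation of Ier3 with the same 9 genes lay between 0.08 and 0.57. All of these correlations are over clusters or sums that share libraries and are given as a description.

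In the GENCODE annotation of GRCm38 the members are protein-coding genes, with Atf3 at chr1:191170296-191218039, Jun at chr4:95049034-95052222, Fosb at chr7:19302696-19310051, Zfp36 at chr7:28376784-28380253 and Ier2 at chr8:84661331-84662852. Further positions are Fos at chr12:85473890-85477273, Dusp1 at chr17:26505590-26562128, Ier3 at chr17:35821684-35822923 and Junb at chr8:84974484-84978718. The UMIs of 3′ libraries mark transcript ends, so values do not tell which exons or transcripts were read.

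**Figure D1:**
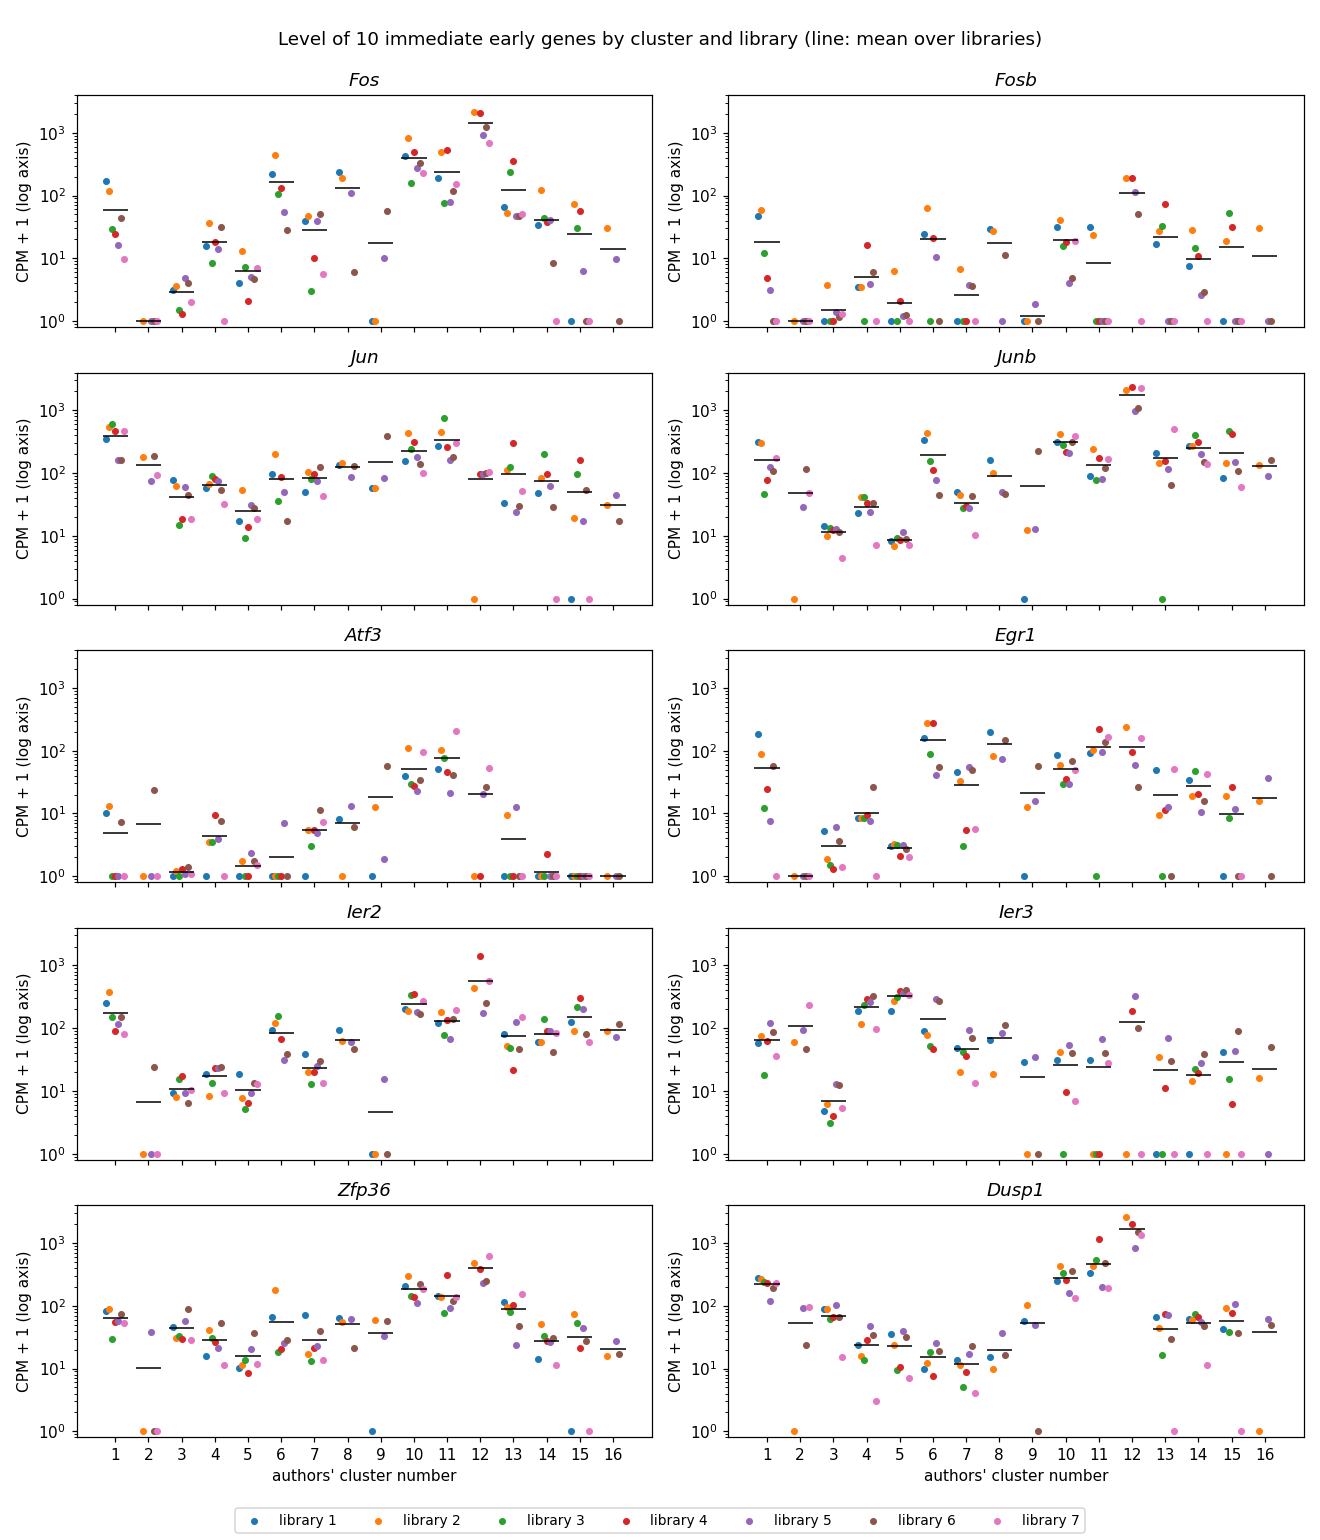
Level of each of the 10 genes by cluster, in CPM plus 1 on a log axis; each point is the summed cells of a library and the line is the mean over libraries. The points of cluster 12 sit high for Fos, Junb, Ier2, Zfp36 and Dusp1, while Ier3 is high in clusters 4 and 5 and low in cluster 3.

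Cluster 12 carried the markers of neutrophils and few of those of macrophages. All 5 neutrophil markers were highest in this cluster, at a summed 122221 to 188296 CPM over its libraries, whereas 3 of 6 macrophage markers had no UMI there. Of the 5 monocyte markers 1 had no UMI there, and they summed to 1903 to 6153 CPM. The same markers summed to 12852 to 30104 CPM in cluster 10 and to 403 to 3767 CPM in cluster 11. The 8 proximal tubule markers summed to 2436 to 15019 CPM in cluster 12, against 8124 to 48271 CPM in cluster 3 itself, and their part in the levels was not tested.

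The promoters of 4 members are shown because these genes have unlike patterns: Fos, Junb and Dusp1, which peaked in cluster 12, and Ier3, which did not. Each sequence is the window of 250 bases before the RefSeq start, and capitals mark the letters TGACG, the core of the cAMP response element that CREB and ATF proteins bind, together with TATAA, the TATA box.
Fos promoter, GRCm38.p6 chr12:85473640-85473889, plus strand: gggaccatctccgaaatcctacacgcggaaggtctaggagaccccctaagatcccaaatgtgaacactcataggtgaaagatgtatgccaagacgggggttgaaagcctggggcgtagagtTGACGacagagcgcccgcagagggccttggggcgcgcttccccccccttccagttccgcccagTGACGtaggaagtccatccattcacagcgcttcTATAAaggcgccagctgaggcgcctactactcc
Junb promoter, GRCm38.p6 chr8:84978749-84978998, minus strand: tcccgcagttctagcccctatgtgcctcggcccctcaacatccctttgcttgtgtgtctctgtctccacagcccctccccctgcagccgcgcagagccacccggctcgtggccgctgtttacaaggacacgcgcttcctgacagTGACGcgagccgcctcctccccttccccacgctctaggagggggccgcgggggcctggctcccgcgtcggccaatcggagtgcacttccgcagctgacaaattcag
Dusp1 promoter, GRCm38.p6 chr17:26508473-26508722, minus strand: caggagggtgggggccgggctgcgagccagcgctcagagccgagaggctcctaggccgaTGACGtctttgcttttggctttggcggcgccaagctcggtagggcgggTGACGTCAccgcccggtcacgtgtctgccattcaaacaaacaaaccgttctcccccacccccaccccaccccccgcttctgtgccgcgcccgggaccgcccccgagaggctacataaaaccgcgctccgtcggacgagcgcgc
Ier3 promoter, GRCm38.p6 chr17:35821463-35821712, plus strand: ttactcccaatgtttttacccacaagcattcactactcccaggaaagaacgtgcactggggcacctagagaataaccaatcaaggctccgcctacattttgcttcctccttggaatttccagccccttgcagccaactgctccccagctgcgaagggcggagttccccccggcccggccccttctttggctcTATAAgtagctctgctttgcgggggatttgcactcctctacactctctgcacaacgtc

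Windows were found for 8 of the 10 genes. The letters TGACG, on either strand, stood in 5 of them, those of Fos, Fosb, Junb, Atf3 and Dusp1, and in 17.8% of all 32851 windows of this length in the RefSeq table. The full palindrome TGACGTCA, which holds TGACG on both strands, was found in Dusp1 alone among the 8 and in 1.55% of all windows. TATAA, read on the gene's strand, stood in Fos and Ier3, and in 16% of all windows. The AP-1 letters TGANTCA were in none of the 8 windows and in 6.75% of all. The Egr letters GCGGGGGCG were in Fosb and Zfp36 (2.57% of all), the NF-kB consensus in Fos, Fosb and Ier3 (3.90% of all) and the CArG box of serum response factor in Zfp36 (1.47% of all). These matches describe letters in a window only.

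The next 5 comparisons tested cluster groups within libraries. Each compares the mean of some clusters with the mean of others in a single edgeR quasi-likelihood fit over all 16 clusters and 7952 genes, with a term for library and a Benjamini-Hochberg adjusted p under 0.05 as the threshold. Differences are log2 folds ± SE. The clusters were defined on the same counts, so a large share of all genes passes, and that share stands beside the members' count and is the background of the gene lists as well. The comparisons of immune, endothelial and podocyte clusters share the tubule clusters as reference. With TMM factors taken from genes of at least 100 CPM, a scaling chosen after seeing the data, the median of all genes moved from -0.04, -0.43, 0.01, -0.54 and -0.36 to -0.14, -0.22, 0.16, -0.08 and -0.10 in the 5 comparisons, in the order given here.

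The proximal tubule-like cluster 3 differed from the mean of the distal segments, clusters 4 to 7, in 9 of 10 members. Of these, 7 were lower in cluster 3 and 2 were higher, against 60.4% of all genes called in either direction, 31.4% lower and 29.1% higher. Ier3 was lower by the largest amount, with a log2 difference of -4.38 ± 0.23 (adjusted p = 3.3e-34), followed by Atf3 (-3.24 ± 0.45), Fos (-2.99 ± 0.34) and Egr1 (-2.54 ± 0.33). Fosb, Junb and Ier2 were lower by smaller amounts, at -2.17, -1.57 and -1.19. The 2 genes that went the other way are known to limit a response, a shared role that was not tested here. Dusp1, which ends MAP kinase signals, was higher in cluster 3 by 2.00 ± 0.18 (adjusted p = 1.2e-18), and Zfp36, which ends the life of mRNAs, by 0.80 ± 0.17 (adjusted p = 3.4e-05). In every library the Dusp1 level of cluster 3, 14.5 to 102 CPM, was above that of the intercalated-like cluster 7, 3.11 to 21.6 CPM, in the same library. Jun differed by -0.27 ± 0.23 (adjusted p = 0.31) and did not pass.

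The members' median was -1.87, against -0.04 over all genes. Among the genes called lower in cluster 3, the distal cluster 5 was not above it by mean level for every one. Cluster 5 was at 7.65 against 10.3 CPM for Junb, 1.77 against 1.99 CPM for Egr1 and 9.50 against 9.91 CPM for Ier2. For Fos, Fosb, Atf3 and Ier3 cluster 5 was above cluster 3. Of all called genes 48.1% were higher, against 37.9% with library size scaling alone. Leaving out the principal-like cluster 6, the highest distal cluster for Fos, Junb and Egr1, kept the 9 calls but brought Fos to -2.27, Fosb to -1.51, Junb to -0.87 and Egr1 to -1.63. Atf3 lost its call without library 5 (adjusted p = 1), which held all Atf3 UMIs of cluster 6, so that no fold can be given there, and Egr1 moved to -3.18 without that library. In cluster 5, a median of 31.7% of UMIs were mitochondrial, against 16.7% in cluster 3; among cells with at most 30% the Ier3 difference was -4.32. Haemoglobin markers in cluster 3 summed to 0.376 to 6597 CPM over the libraries, and their part in these differences was not tested.

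Of a wider set of 58 early response and stress genes, 44 were tested, of which 12 were higher in cluster 3 and 16 lower, with a median of -0.23. These counts are near the shares of all genes, 29.1% higher and 31.4% lower, and are not read as a result about the set. Those higher included Errfi1, a feedback inhibitor of the EGF receptor, at 3.33 ± 0.15, Id1, an inhibitor of differentiation, at 1.82 ± 0.22, and the transcription factor Cebpb at 1.57 ± 0.20. Those lower included Btg2, an antiproliferative gene, at -4.24 ± 0.23, Gadd45b, a stress sensor, at -3.97 ± 0.35, Phlda1 at -3.77 ± 0.29 and the orphan nuclear receptor Nr4a1 at -3.52 ± 0.39. The polo-like kinase Plk2 was also called higher, and had no UMI in 1 of the clusters compared. Of 12 heat shock genes, 5 were higher and 4 lower, against the same 29.1% and 31.4% of all genes. The mitochondrial chaperonins Hspe1 and Hspd1 were higher in cluster 3 by 1.33 and 1.14 and the constitutive Hspa8 by 1.25. The inducible Hspb1, Hspa1b and Hspa1a were lower, at -3.34, -2.37 and -2.18.

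The mean of the immune clusters 11 to 15 exceeded that of the tubule clusters 3 to 7 in 8 of 10 members. Of the others, 1 was lower and 1 did not pass. For all genes, 57.6% were called, 14.1% higher and 43.6% lower. Junb showed a log2 difference of 3.13 ± 0.18 (adjusted p = 8.7e-31), Fos 2.80 ± 0.31, Fosb 2.65 ± 0.41, Ier2 2.59 ± 0.17 and Dusp1 2.47 ± 0.19. Egr1 (1.32 ± 0.41), Zfp36 (1.16 ± 0.19) and Jun (0.70 ± 0.25) were higher by less. Ier3 was lower in the immune clusters by -1.46 ± 0.20 (adjusted p = 2.2e-10). Atf3, with no UMI in cluster 15, has no interpretable fold and was not called with edgeR (adjusted p = 1), although DESeq2 called it higher.

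Without Atf3, the median of the members was 2.47, against -0.43 over all genes. Single clusters did not all follow. Mean Egr1 in tubule cluster 6, 148 CPM, was above every immune cluster, of which cluster 11 was highest at 115 CPM. Mean Fos in cluster 6, 164 CPM, was below clusters 11 and 12 but above clusters 13, 14 and 15 (122, 40.4 and 23.4 CPM). Mean Zfp36 was lower in clusters 14 and 15 (26.9 and 30.6 CPM) than in cluster 3 (43.7 CPM), and higher in clusters 11, 12 and 13. Leaving out the neutrophil-like cluster 12 kept all 9 calls and lowered Fos to 2.04 and Dusp1 to 1.72. Adding the monocyte-like cluster 10 to the immune group also kept them, with Fos at 3.10. The Jun call rested on libraries 3 and 4: its difference fell to 0.13 without both (adjusted p = 0.77), and the call was lost without library 3 (adjusted p = 0.071) or library 4 (adjusted p = 0.093) alone, with at least 20 cells per sum (adjusted p = 0.20) and among cells with at most 30% mitochondrial UMIs (adjusted p = 0.087). The Egr1 call was lost with at least 20 cells per sum (adjusted p = 0.47) or without both libraries (adjusted p = 0.078). Scaling with TMM factors from genes of at least 100 CPM moved the split of all called genes from 24.4% to 33.5% higher, and library size scaling alone to 34.4%.

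Of the 44 other early response genes, 22 were higher and 7 lower in the immune clusters, against 14.1% and 43.6% of all genes, with a median of 1.07. Klf2, a factor that keeps lymphocytes and endothelium quiescent, was higher by 7.26 ± 0.44, the phosphatase Dusp2 by 6.66 ± 0.66, Ier5 by 4.53 ± 0.25 and the interferon response factor Irf1 by 3.67 ± 0.47. Id3 at -1.90 ± 0.27, the stress sensor Gadd45g at -1.55 ± 0.19 and the aldosterone-regulated kinase Sgk1 at -1.01 ± 0.27 were lower. The matricellular gene Cyr61 was called lower as well and had no UMI in 2 of the clusters. Of the 12 heat shock genes 3 were higher, with Dnajb1 at 1.02 ± 0.22, and 6 lower, with Hsph1 at -1.02 ± 0.25, which is near the same shares of all genes.

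Against the mean of the tubule clusters, 8 of 10 members were higher in the endothelial-like cluster 1 and 1 was lower. Of all genes 48.1% were called, 25.8% higher and 22.3% lower. Dusp1 (2.86 ± 0.19, adjusted p = 7.6e-26), Ier2 (2.84 ± 0.19, adjusted p = 7.6e-27), Jun (2.38 ± 0.22) and Junb (2.19 ± 0.23) led. They were followed by Fosb (2.09 ± 0.44), Egr1 (1.88 ± 0.34), Fos (1.47 ± 0.35) and Zfp36 (0.68 ± 0.24). Ier3 was lower by -0.54 ± 0.23 (adjusted p = 0.044). That call was lost without any of libraries 1, 3, 4, 5, 6 and 7 (adjusted p from 0.059 to 0.23) and when TMM factors came from genes of at least 100 CPM (adjusted p = 0.15). Atf3 differed by 1.21 ± 0.56 (adjusted p = 0.065). It passed without library 4 (1.48) or without libraries 3 and 4 (1.58), among cells with at most 30% mitochondrial UMIs (1.22) and with both added scalings (1.34 and 1.57), and without library 5, where cluster 6 holds no UMI of it and no fold can be given.

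The median of the members was 1.99 and that of all genes 0.01. By mean level, the principal-like cluster 6 was above cluster 1 for Fos (164 against 58.0 CPM) and Egr1 (148 against 52.8 CPM). It was also above for Junb (191 against 163 CPM) and Fosb (19.3 against 17.2 CPM), and below for Jun, Ier2, Zfp36 and Dusp1. The split of all called genes moved from 53.7% higher to 65.3% higher with TMM factors from genes of at least 100 CPM, and to 78.6% with library size scaling alone. All 5 mural cell markers were also highest in cluster 1. They summed to between 0 and 884 CPM in its libraries, with a median of 150 CPM, and to at most 28.0 CPM in any library of clusters 3 to 7. Their part in the result was not tested.

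Early response genes of the wider list were higher in cluster 1 in 31 of 44 cases and lower in 1, against 25.8% and 22.3% of all genes, with a median of 1.29. The flow-responsive factors Klf2 and Klf4 were higher by 8.89 ± 0.23 and 6.39 ± 0.20, and the small GTPase Rhob by 5.35 ± 0.20. Plk2 was called higher too, without a UMI in 1 of the clusters. The exception was Gadd45a, at -0.72 ± 0.27. Heat shock genes were higher in 5 of 12 cases, led by the small heat shock protein Hspb1 at 4.91 ± 0.15, and Hspd1, Hspe1 and Hsp90aa1 were lower, at -0.70, -0.70 and -0.53.

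No member passed the test in the podocyte-like cluster 2, against 20.6% of all genes, 6.36% higher and 14.2% lower. With edgeR 0 of the 10 had an unadjusted p under 0.05, and DESeq2 called 0 as well. The cluster held 78 cells and had sums from 4 libraries. Fos, Fosb and Egr1, with no UMI in these sums, have no fold. For the genes that were counted, Jun was at 181, 73.5, 183 and 93.9 CPM in libraries 2, 5, 6 and 7 and differed from the tubule by 0.53 ± 0.64, and Ier3 was at 60.3, 91.9, 45.7 and 235 CPM and differed by -0.86 ± 0.50. The standard errors of 0.50 to 1.57 among the 7 members with UMIs show how little could be resolved. Of the 44 genes of the wider list 6 were higher and 2 lower, against the same 6.36% and 14.2% of all genes. The matricellular gene Ctgf was higher by 5.16 ± 0.62, Cebpb by 2.93 ± 0.42 and Gadd45a by 2.16 ± 0.38, while Gadd45g and Sgk1 were lower at -2.63 and -2.21. Of all called genes 30.9% were higher, against 63.7% with TMM factors from genes of at least 100 CPM and 76.2% with library size scaling alone.

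Within the immune cells, the myeloid clusters 11 and 12 were higher than the lymphoid clusters 13 to 15 in 8 members, against 24.1% of all genes called, 5.71% higher and 18.3% lower. Dusp1 differed by 3.58 ± 0.23 (adjusted p = 2.5e-26), Fos by 3.06 ± 0.35 (adjusted p = 1.6e-12), Egr1 by 2.51 ± 0.66 and Zfp36 by 2.02 ± 0.31. Ier3 (1.17 ± 0.44), Ier2 (1.02 ± 0.27) and Junb (0.97 ± 0.27) were higher by about the same amount. Atf3 was called without an interpretable fold, since cluster 15 had no UMI of it. Fosb (0.95 ± 0.64, adjusted p = 0.30) and Jun (0.79 ± 0.49, adjusted p = 0.25) did not pass, and both were also above 0. Both passed without libraries 3 and 4, Fosb at 2.55 (adjusted p = 0.012) and Jun at 1.84 (adjusted p = 0.0098), and Jun also after thinning to 1000 UMIs (1.23, adjusted p = 0.039) and with the compared clusters alone (1.51, adjusted p = 0.0047).

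Cluster 12 carried part of this difference. With cluster 11 as the only myeloid cluster, Dusp1 (2.72), Egr1 (2.76), Fos (1.85), Zfp36 (1.49) and Atf3 were still higher and Jun now passed (1.80 ± 0.36, adjusted p = 3.9e-05). Junb turned to -0.68 (adjusted p = 0.19) and Fosb to -0.71 (adjusted p = 0.64), and Ier2 and Ier3 lost their calls. With the monocyte-like cluster 10 added to the myeloid group, Jun passed (1.03 ± 0.39, adjusted p = 0.038) and Ier3 did not (adjusted p = 0.059). With at least 20 cells per sum, which leaves cluster 12 with the sum of library 6 alone, Fos, Zfp36 and Dusp1 alone passed. The Ier3 call was also lost without library 1, 4, 5 or 7, with 0.53 as the value without library 5. Of all called genes 23.7% were higher, and 43.9% with TMM factors from genes of at least 100 CPM.

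Among the 44 genes of the wider list, 11 were higher in the myeloid clusters and 8 lower, against 5.71% and 18.3% of all genes, with a median of 0.59. Cebpb, a factor of myeloid differentiation, was higher by 3.12 ± 0.31. Trib1 and Socs3 were called higher and Dusp5 lower, each with no UMI in 1 of the clusters. The lymphoid side was higher for Dusp2 (-3.38 ± 0.39), Klf2 (-1.85 ± 0.31) and the kinase Pim1 (-1.25 ± 0.26). Heat shock genes were lower in 7 of 12 cases, with Dnajb1 at -1.31 and Hsp90ab1 at -1.29. 

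**Figure D2:**
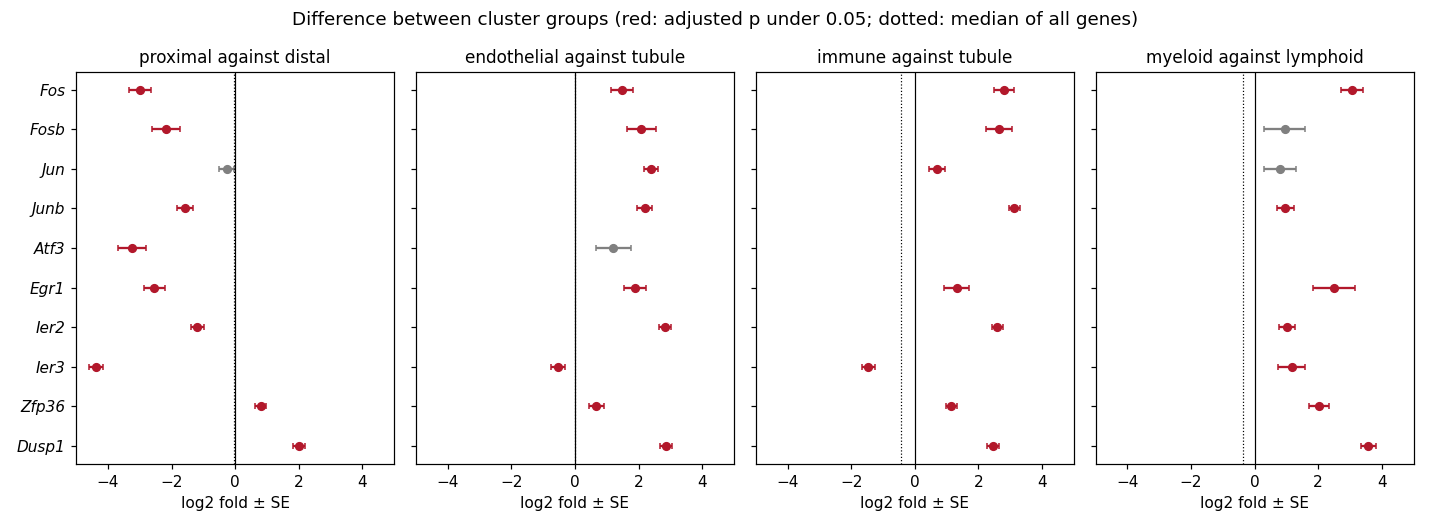
Log2 fold ± SE of each gene in 4 comparisons of cluster groups, from the fit over all clusters; red points have an adjusted p under 0.05, grey points do not, the dotted line is the median of all genes, and Atf3 is left out where a cluster had no UMI of it. Dusp1 and Zfp36 lie to the right and Ier3 farthest to the left between proximal and distal clusters, and Ier3 is also the only gene left of 0 between immune or endothelial and tubule clusters.

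Levels of the same gene in the same cluster differed widely between libraries. In the 6 clusters with at least 20 cells in all 7 libraries, the summed level of the 10 genes differed between the highest and the lowest library by a ratio of 1.91 in cluster 5 to 4.05 in cluster 7. In cluster 1 the summed level ran from 724 CPM in library 5 to 1914 CPM in library 2, and in cluster 3 from 78.0 CPM in library 7 to 257 CPM in library 5. Library 7 was the lowest in clusters 3, 4, 7 and 14, and without it the ratio fell from 3.30 to 1.89 in cluster 3, from 3.75 to 1.75 in cluster 4 and from 4.05 to 2.39 in cluster 7. The summed level is weighted to the genes with most UMIs. Over the 60 pairs of a gene and one of these 6 clusters, the highest library was library 2 in 15, library 6 in 13, library 5 in 11, library 1 in 10, library 3 in 7, library 4 in 4 and library 7 in 0. Library and genotype cannot be told apart, since the libraries are not linked to the labelled mice.

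In the principal-like cluster 6 the libraries showed opposite patterns for Fos and Ier3. In libraries 1 to 6 Fos measured 221, 446, 103, 132, 52.8 and 27.2 CPM. Junb followed with 330.1, 430, 155, 112, 77.6 and 43.6 CPM. Ier3 ran the other way, at 88.4, 76.9, 51.6, 46.2, 289 and 272 CPM, so that libraries 5 and 6 were lowest for Fos and highest for Ier3 without overlap with the other 4. The cells behind these values numbered 123, 122, 15, 38, 330 and 238.

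The cluster itself was not the same in those libraries. The 7 principal cell markers summed to 9335 CPM in library 5 and 10556 CPM in library 6, against 18807 to 20279 CPM in libraries 1 to 4. The 4 distal convoluted tubule markers summed to 3481 and 2837 CPM, against 1005 to 1566 CPM. The median mitochondrial share of the cells was 20.7% and 30.6%, against 13.6 to 18.6%. The part of these shifts in the Fos, Junb and Ier3 levels was not tested.

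Libraries 1 and 2, the highest for Fos in cluster 6, were high for Fos in clusters 1 and 7 as well. The order of the other libraries differed between these clusters. In the endothelial-like cluster 1, Fos was 172, 116, 28.3, 23.4, 15.2, 42.2 and 8.79 CPM in libraries 1 to 7, and Egr1 was 184, 86.7, 11.3, 23.4, 6.53, 56.9 and 0 CPM. Both were thus highest in libraries 1 and 2. Jun in the same cells was highest in library 3, at 595 CPM. In the intercalated-like cluster 7, by contrast, libraries 5 and 6 were among the high ones for Fos, with 38.3 and 49.1 CPM beside 38.5 and 46.6 CPM in libraries 1 and 2, and 2.02 to 8.96 CPM in libraries 3, 4 and 7. Egr1 had the same set of high and low libraries there, at 32.0 to 53.1 CPM against 2.02 to 4.67 CPM.

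**Figure D3:**
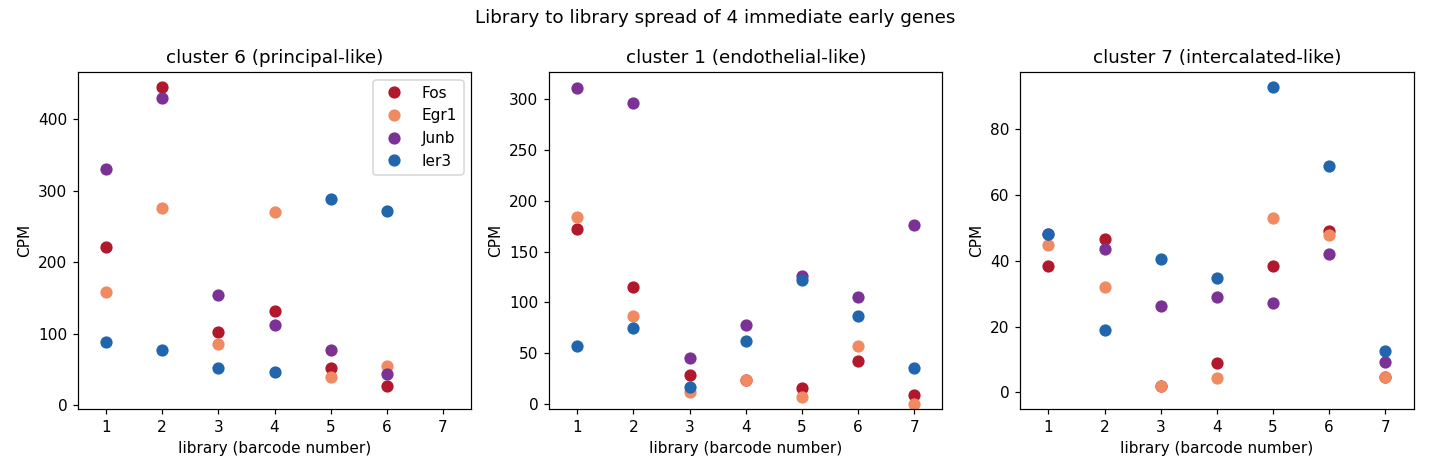
CPM of Fos, Egr1, Junb and Ier3 in each library in clusters 6, 1 and 7, with linear axes that start near 0; library 7 has no sum in cluster 6. In cluster 6 Ier3 is at 289 and 272 CPM in libraries 5 and 6, where Fos is at 52.8 and 27.2 CPM, and in cluster 1 Fos and Egr1 are highest in libraries 1 and 2.

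Whether a library that is high in one large tubule cluster is high in another was asked for clusters 3 and 5, over 7 libraries, on log2(CPM + 10), with 10 relations tested. With this test 0 passed after Benjamini-Hochberg adjustment, and 2 had an unadjusted exact permutation p under 0.05 for Pearson's r (two-sided). Dusp1 had r = 0.74 (exact permutation p = 0.012, adjusted 0.12) and Spearman's rho = 0.89 (exact permutation p = 0.012, adjusted 0.12), and r was 0.69 without libraries 5 and 7. Zfp36 had r = 0.90 (exact permutation p = 0.029, adjusted 0.14) with rho = 0.64 (exact permutation p = 0.14, adjusted 0.39), and r was -0.03 without libraries 5 and 6, so that relation rests on those libraries. Fos had r = 0.21 (exact permutation p = 0.69). Without library 1 Jun passed, and without library 2 Dusp1 did.

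Within clusters, and summed over libraries, most pairs of members that could be counted were found in the same cells more often than their single shares give. Cells thinned to 1000 UMIs were counted for each pair of genes, and the number with both was compared with the product of the 2 single shares, computed library by library and summed. Of 93 combinations of a pair and a cluster with at least 5 cells expected, 86 had more cells with both genes than the product, with a median ratio of 1.39 and a range of 0.572 to 3.34. The ratio is a description, with no test. Pairs of other genes were not counted, so an excess is not shown to be particular to the members. It was highest in cluster 6, where all 12 pairs were above 1 with a median of 2.35. Fos and Egr1 occurred together in 23 of its cells, against 6.88 expected, and Fos and Junb in 33, against 11.6 expected. By single library, Fos with Jun or Ier3, Junb with Ier3 or Zfp36 and Egr1 with Ier3 were above the product in 2 of 5. The other pairs of cluster 6 were above it in 3 or 4 of 5 libraries. In cluster 1, Fos and Ier2 met in 15 cells, against 5.14 expected. Below the product were 7 combinations, the lowest of which was Ier2 with Dusp1 in the T lymphocyte-like cluster 14, at 0.572.

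Cells with 3 or more of the 10 genes made up 60% of the thinned cells of cluster 12, 16.7% of cluster 10, 11.5% of cluster 11, 8.60% of cluster 1 and 4.40% of cluster 6. In the large tubule clusters 3 and 5 they were 0.121% and 0.235%. Before thinning, the shares were 81.1%, 47.0%, 24.1%, 20.2%, 15.7%, 1.57% and 2.65% in the same order. Thinning left out 2494 cells with fewer than 1000 UMIs.

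**Figure D4:**
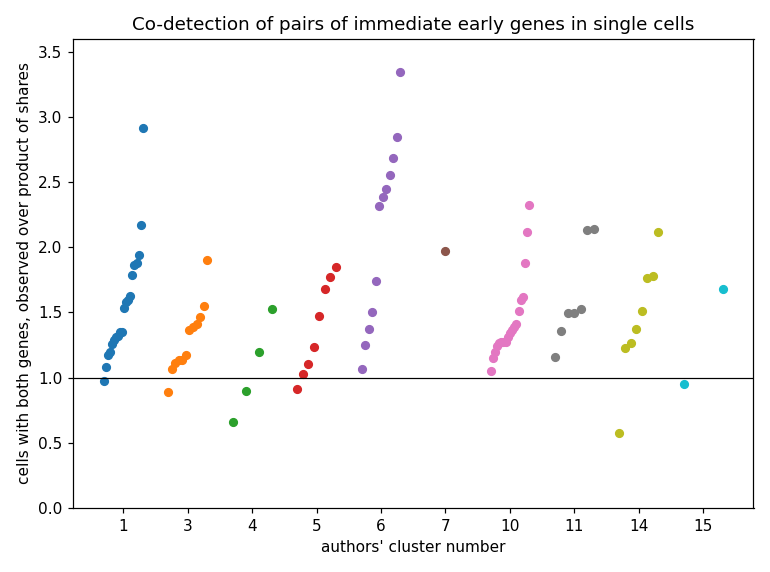
Number of cells with a UMI of both genes over the number from the product of the single shares, for 93 combinations of a gene pair and a cluster with at least 5 cells expected; each point is a pair, spread within its cluster by rank and coloured by cluster. The line at 1 marks the product; all 12 pairs of cluster 6 lie above it and the highest is Fos with Egr1 at 3.34.

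Genes outside the 10 that shared their pattern were ranked by Pearson correlation with the mean of the members. Over the 42 library sums of the 6 fully covered clusters, after the mean of each cluster was taken off, the 8 nearest of 2442 genes were Btg2 (0.77), Btg1 (0.77), Eif3h (0.67), Klf13 (0.65), Hdgf (0.64), Dctn3 (0.62), Cited2 (0.62) and Dbp (0.62). Btg1 and Btg2 are antiproliferative genes of the wider early response list, and Dbp is a transcription factor of the circadian clock. Over the 16 cluster means, the nearest of 2548 genes were Mcl1 (0.89), a survival gene, then Alox5ap (0.85), Ifitm3 (0.84), Eif4ebp1 (0.84) and Ccl6 (0.84). These points share libraries and depth, and no test was made of them.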

How the data were processed

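Whole-kidney cells of 7 mice were captured with the 10x Chromium 3′ kit, per the labels. The submitters' processing notes name Cell Ranger 1.3, STAR and the genome build mm10 (GRCm38.p4). The authors deposited a matrix of UMI counts per gene and cell with their cluster number of each cell, and neither a cell filter nor a clustering method is given in the sources used here. These counts were added up by library and cluster where 5 or more cells were present, and fitted with edgeR 4.0.16 in R 4.3.3 (TMM, filterByExpr by cluster, quasi-likelihood F test, terms for cluster and library). SE is the size of the log2 fold over the root of F. The p-values of these fits measure the spread left between sums after the cluster and library terms, estimated over all 16 clusters together. Each library adds several sums to that estimate, so these p-values do not rest on 7 independent values.

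Members and lists were chosen with earlier results of these data known. All members are named, and of the wider list and the heat shock list the 4 and the 3 most changed genes per direction, and the nearest genes by correlation; single library values and cluster groups beyond that were chosen after they were seen. A gene of the wider list that this rule would name and a driver line are not reported here. Doublets were not removed. The test was checked on simulated counts, in which TMM over all genes shifted unchanged genes in small sums, so 2 scalings were added. The other alternatives were DESeq2 1.42.0 (poscounts size factors), those size factors within edgeR, all genes without a filter, sums of 20 or more cells, single libraries or libraries 3 and 4 left out, thinning to 1000 UMIs, no library term, the compared clusters alone, cells with at most 30% mitochondrial UMIs (12501 left out) and removal of the 6% of cells with most UMIs (2622). Promoters come from the RefSeq table of GRCm38.p6.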

Additional observations from a re-analysis of the deposited data

Results flagged for a closer look

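In 24 of 146 groups of libraries, the level of a gene in a library lay far from the others by Dixon's criterion. Chance meets its cutoffs in about 1 of 20 groups if values are normally distributed. Levels that rest on few UMIs and hold counts of 0 are not, so the 24 cannot be set against that share. Of the 24 flagged groups, 9 rest on fewer than 5 UMIs. In 7 of the 24 all other libraries held 0 UMIs, and in all 7 a count of 0 in at least 1 of them allowed a level above the value given, so those libraries are not shown to stand apart. For Ier2 in cluster 9, at 14.5 CPM, the counts of 0 allowed 34.6 to 168 CPM. The 0 of Jun in cluster 12 allowed up to 143 CPM, above the nearest library.

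In library 2, Fos in cluster 14 was at 122 CPM with 27 UMIs (the nearest other library had 43.3 CPM), Fosb in cluster 3 was at 2.82 CPM with 28 UMIs (the nearest other library had 0.394 CPM), Fosb in cluster 5 was at 5.2 CPM with 7 UMIs (the nearest other library had 1.08 CPM), Fosb in cluster 6 was at 63.3 CPM with 28 UMIs (the nearest other library had 23.6 CPM), Jun in cluster 12 was at 0 CPM with 0 UMIs (the nearest other library had 94.4 CPM) and Zfp36 in cluster 6 was at 176 CPM with 78 UMIs (the nearest other library had 64.8 CPM). In library 6, Fos in cluster 9 was at 55.9 CPM with 1 UMI (the nearest other library had 9.26 CPM), Jun in cluster 9 was at 391 CPM with 7 UMIs (the nearest other library had 81.5 CPM), Junb in cluster 9 was at 224 CPM with 4 UMIs (the nearest other library had 11.9 CPM), Atf3 in cluster 2 was at 22.9 CPM with 1 UMI (the nearest other library had 0 CPM), Egr1 in cluster 4 was at 25.2 CPM with 15 UMIs (the nearest other library had 8.56 CPM), Ier2 in cluster 2 was at 22.9 CPM with 1 UMI (the nearest other library had 0 CPM) and Zfp36 in cluster 5 was at 35.5 CPM with 142 UMIs (the nearest other library had 19.2 CPM). In library 4, Fosb in cluster 4 was at 15.4 CPM with 9 UMIs (the nearest other library had 5.03 CPM), Jun in cluster 13 was at 298 CPM with 29 UMIs (the nearest other library had 126 CPM), Atf3 in cluster 14 was at 1.22 CPM with 1 UMI (the nearest other library had 0 CPM), Zfp36 in cluster 11 was at 307 CPM with 7 UMIs (the nearest other library had 140 CPM) and Dusp1 in cluster 11 was at 1142 CPM with 26 UMIs (the nearest other library had 533 CPM). In library 5, Fosb in cluster 9 was at 0.882 CPM with 2 UMIs (the nearest other library had 0 CPM), Atf3 in cluster 6 was at 5.97 CPM with 7 UMIs (the nearest other library had 0 CPM), Ier2 in cluster 9 was at 14.5 CPM with 33 UMIs (the nearest other library had 0 CPM) and Zfp36 in cluster 2 was at 36.8 CPM with 4 UMIs (the nearest other library had 0 CPM). In library 7, Junb in cluster 13 was at 501 CPM with 10 UMIs (the nearest other library had 209 CPM) and Dusp1 in cluster 14 was at 10.5 CPM with 1 UMI (the nearest other library had 46.6 CPM).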

How the results depend on the processing

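The counts of members called higher or lower stayed within 1.5 times of the reported count under every alternative, apart from those named here. The single member lower in the endothelial-like cluster, Ier3, became 0 with DESeq2, without libraries 3 and 4, after thinning, without the library term, with the compared clusters alone and with both added scalings (0 to 1 when single libraries were left out). The 8 members higher in myeloid clusters became 3 with at least 20 cells per sum. In the podocyte-like cluster, where no member was called, Junb turned to -0.36 without library 6 and to -0.21 without the cells with most UMIs, and ran from -0.36 to 0.69 over single libraries left out. A member with no UMI in a compared cluster under a setting was given no fold there. Without cluster 12, Junb turned to -0.68 and Fosb to -0.71 between myeloid and lymphoid clusters, and the cause was not tested.

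Ier3 in cluster 5 rose from 324 to 465 CPM when mitochondrial genes were left out of the total. The ratio of the highest to the lowest library moved to 2.08 in cluster 1 after thinning and to 1.65 in cluster 5 among cells with at most 30% mitochondrial UMIs. Leaving out single libraries gave 2.21 to 2.64 in cluster 1, 1.89 to 3.3 in cluster 3, 1.75 to 3.75 in cluster 4, 1.46 to 1.91 in cluster 5, 2.39 to 4.05 in cluster 7 and 2.47 to 3.42 in cluster 14. Members past the threshold in the correlation of clusters 3 and 5 numbered 0 to 1.

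Calls over all genes moved by more than 1.5 times as follows. The 4805 between proximal and distal and the 4582 between immune and tubule clusters became 8327 and 7045 without the low-count filter. Thinning gave 2690, 2756, 2209, 1040 and 1126 in the 5 comparisons, against 4805, 4582, 3826, 1639 and 1913. The podocyte count became 1026 with at least 20 cells per sum and 1028 without library 7, and the myeloid count 591 with at least 20 cells per sum and 795 with the compared clusters alone. Clusters of the same library are paired by the library term of the fits; without it, calls over all genes stayed within 1.5 times. Few UMIs limit Fosb and Atf3, and sums from 3 to 5 libraries limit clusters 2, 8, 9, 12 and 16.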
